A study of Mus musculus with 8 samples.

Results

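The epidermal growth factor (EGF) family was followed through 9 genes in mouse uterine epithelium: the ligand genes Areg, Ereg, Hbegf, Tgfa and Btc, the receptor genes Egfr, Erbb2 and Erbb3, and Errfi1, which encodes an intracellular inhibitor of the receptors. The members were chosen by gene symbol, and all 9 were found among the 24346 symbols of the transcript tables. RNA was sequenced from 3 control libraries and 5 libraries of Smad2/3 cKO mice, which carried floxed Smad2 (exons 9 and 10) and floxed Smad3 (exons 2 and 3) together with Cre recombinase knocked into the progesterone receptor locus (Pgr-cre). Both groups had a mixed C57BL/6/129S6/SvEv background. The labels call the first group control and give no alleles for it, and the sources used here do not give the age of the mice, their cycle stage or how the epithelium was isolated. Pgr-cre is described there as active after birth in ovary, oviduct, mammary gland and pituitary as well as uterus, so other cells and organs could carry the deletion too. Nothing in the labels ties the libraries to separate animals, so p-values measure only the spread between libraries, part of which may be technical.

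EGF family ligands are made as membrane-anchored precursors that ADAM proteases cut free, and they bind ERBB receptors, which pair and signal through RAS to the kinases ERK and through PI3K to AKT. EGFR binds all the ligands listed here, ERBB2 has no known soluble ligand and acts as a partner, and ERBB3, which binds neuregulins, has a weak kinase and signals mainly through its partners. In the mouse uterus, Areg is known as a progesterone-induced gene of the luminal epithelium, Hbegf as a gene induced beside the implanting embryo, and Errfi1 (also called Mig-6) as a progesterone-induced restraint on epithelial growth.

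Values are FPKM (fragment numbers divided by transcript length and by the library's mapped fragments), summed per gene and scaled between libraries, so levels can be set against each other per length. Differences were tested with limma on log2(scaled FPKM + 1) across 11316 genes, and a gene was called at a Benjamini-Hochberg adjusted p below 0.05. Estimated depth was 43.4 to 54.4 M mapped fragments per library. Smad2 was lower in the cKO libraries than in any control, at 3.58 ± 0.378 (SD, n = 5) against 6.07 ± 0.342 scaled FPKM (SD, n = 3; limma adjusted p = 0.00551), and Smad3 was not, at 30.7 ± 8.97 against 28.2 ± 3.07 (adjusted p = 0.837), though gene-level FPKM also counts exons outside the floxed segments. All 10 epithelial markers, from Epcam to Wfdc2, met the expression filter, with a summed level of 5842 to 6334 scaled FPKM in controls and 5340 to 8750 in cKO. Stromal markers (7 of 12 met the filter) summed to 115 to 260 in controls and 57.6 to 253 in cKO, smooth muscle markers (7 of 8) to 63.3 to 376 and 15.7 to 121, and neutrophil markers (5 of the 5 found) to 208 to 399 and 295 to 1966. Endothelial markers (3 of 6) summed to 3.67 to 6.97 and 3.20 to 6.05, macrophage markers (4 of 6) to 86.5 to 128 and 54.9 to 107, and T cell markers (1 of 6) to 2.10 to 2.75 and 2.21 to 4.80, and no marker was at 0 in all libraries. The part of neutrophils in the results on the members was not tested. In these bulk samples fewer cells of a type and less RNA per cell cannot be told apart, and cKO 1 and cKO 2 have titles of another number series than the other 6 libraries, the main title series.

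Across all 8 libraries the median level ran downwards from Errfi1 (34.1 scaled FPKM) through Erbb2 (28.0), Erbb3 (26.4), Hbegf (24.3), Tgfa (8.65), Egfr (5.84), Btc (2.70) and Areg (0.230) to Ereg (listed at 0). The first 4 overlapped in range: Erbb2 was above Erbb3 in 5 of 8 libraries and Erbb3 above Hbegf in 5 of 8. From Hbegf downwards each gene was above the next in 8 of 8 libraries, though the ranges of Hbegf and Tgfa overlap between libraries. The receptor side was mostly Erbb2 and Erbb3, and Egfr made up 7.32% to 12.1% of the summed receptor FPKM. On the ligand side Hbegf made up 51.7% to 80.3% of the summed FPKM and Tgfa 13.3% to 38.8%. Of the 7 members that met the filter (3 or more libraries with a scaled FPKM of 1 or higher), 1 was higher in cKO and 0 were lower. This is 14.3%, and 14.3% of all tested genes were called. At an unadjusted p below 0.05 the counts were 1 of 7, the same gene, and 31.5% of all tested genes. By direction, 7.27% of all tested genes were called higher and 6.98% lower. The median log2 fold change of the 7 was 0.23, against -0.0050 over all tested genes.

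**Figure D1:**
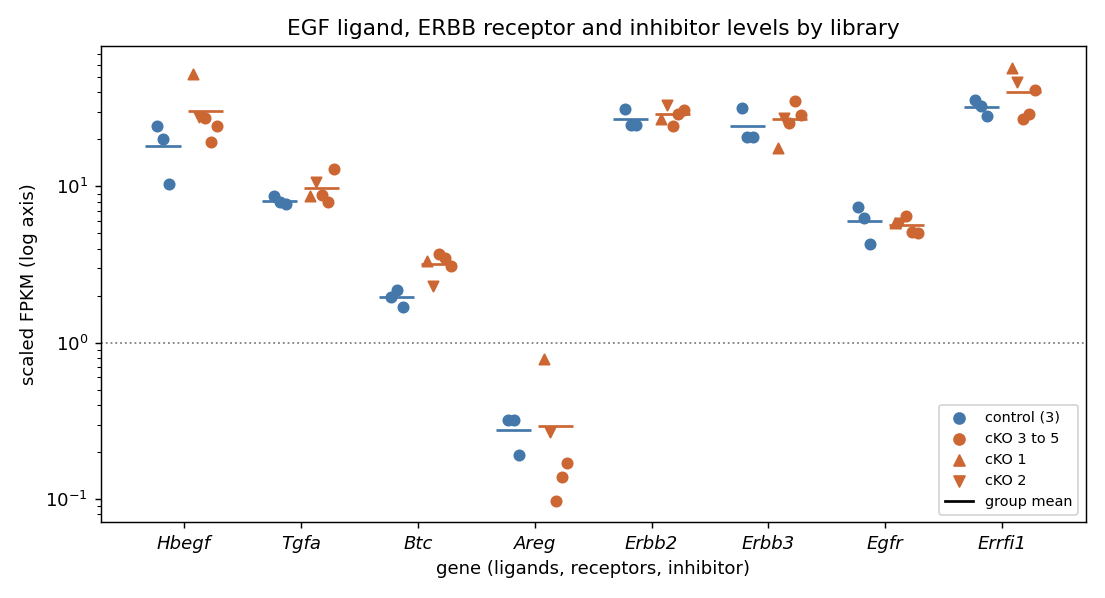
Scaled FPKM (log axis) of 8 members in each library, with group means as horizontal lines; triangles mark cKO 1 (up) and cKO 2 (down), and the dotted line is the filter level of 1. Ereg is listed at 0 in all 8 libraries and cannot be drawn on a log axis. The cKO points of Btc lie above the 3 controls, while those of the other genes overlap with the controls.

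Areg, Ereg and Btc lie in one cluster on chromosome 5 (mm10) with Epgn, the gene of epigen, another EGFR ligand. Epgn (91027517 to 91035212) is followed by Ereg (91074617 to 91093649), Areg (91139615 to 91148432) and Btc (91357261 to 91402994), a stretch of 375 kb in which the tables list Gm19619 as the only other gene. Of the 4, only Btc reached a scaled FPKM of 1 in any library. Start regions of 3 members are shown: Btc, the one member called; Areg, its near-silent neighbour; and Errfi1, the most abundant member. Each window runs from 250 bases before to 50 bases after the RefSeq start site on GRCm38.p6, and 6 of the 9 members have such a window in the table used. Capitals mark matches to the TATA box TATAAA, the cAMP response element TGACGTCA, the GC box with the letters GGGCGG, and the CCAAT box, each searched on both strands.
Areg, chr5:91139349-91139648, plus strand: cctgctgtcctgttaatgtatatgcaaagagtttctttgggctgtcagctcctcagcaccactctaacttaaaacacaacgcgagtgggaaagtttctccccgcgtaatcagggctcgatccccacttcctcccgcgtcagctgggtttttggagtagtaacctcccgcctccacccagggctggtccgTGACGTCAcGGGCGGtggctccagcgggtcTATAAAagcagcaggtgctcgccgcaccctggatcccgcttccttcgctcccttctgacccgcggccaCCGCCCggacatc
Btc, chr5:91402945-91403244, minus strand: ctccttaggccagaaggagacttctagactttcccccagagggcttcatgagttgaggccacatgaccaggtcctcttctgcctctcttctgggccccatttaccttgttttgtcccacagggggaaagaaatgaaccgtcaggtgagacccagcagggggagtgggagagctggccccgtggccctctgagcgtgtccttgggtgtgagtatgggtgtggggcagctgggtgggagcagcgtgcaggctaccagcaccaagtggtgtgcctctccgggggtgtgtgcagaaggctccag
Errfi1, chr4:150854820-150855119, plus strand: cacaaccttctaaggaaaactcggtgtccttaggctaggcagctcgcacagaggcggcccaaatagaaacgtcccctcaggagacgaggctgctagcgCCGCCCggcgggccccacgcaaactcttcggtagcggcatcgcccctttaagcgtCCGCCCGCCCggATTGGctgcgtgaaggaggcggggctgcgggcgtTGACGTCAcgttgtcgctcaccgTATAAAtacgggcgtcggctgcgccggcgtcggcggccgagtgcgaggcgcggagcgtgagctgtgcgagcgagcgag
The Areg and Errfi1 windows both hold a cAMP response element, beginning at -61 and -51 from the start site, followed by a TATA box beginning at -31 and -28. Of 32851 windows of this length, 1.79% hold that response element and 13.6% that TATA box. Both windows also hold GC boxes, found in 35.7% of windows, and 2 of those in Errfi1 share bases. The Btc window holds none of these, nor AP-1 sites (TGANTCA, in 7.81% of windows) or the SMAD motifs GTCTAGAC (0.213%) and AGACAGAC (1.88%), which were absent from the other 2 windows as well. It has 5 CpG dinucleotides, against 21 in Areg, 41 in Errfi1 and a median of 7 over all windows. The table holds a second Errfi1 window, chr4:150853546-150853845, with 2 CpG dinucleotides and no match to these motifs; the window printed is the one that spans the start of the deposited transcript. Of the 3 windows shown, only that of Errfi1 holds the CCAAT box, found in 37.4% of windows. The windows of Egfr, Erbb2 and Tgfa, not shown, hold neither the cAMP response element nor the TATA box. Their only matches were GC boxes in Egfr and Tgfa and a CCAAT box in Erbb2.

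Btc, the gene of betacellulin, a ligand of EGFR and ERBB4, was higher in cKO. Btc stood at 1.97, 2.17 and 1.70 scaled FPKM in controls 1, 2 and 3, against 3.36, 2.29, 3.71, 3.49 and 3.10 in cKO 1 to 5. The groups did not overlap, which held for 24.6% of tested genes (11.7% with cKO above control), and cKO 2 lay just above the highest control. The means were 3.19 ± 0.546 (SD, n = 5) and 1.95 ± 0.237 (SD, n = 3), a ratio of 1.64, and the log2 fold change was 0.50 ± 0.14 (SE; 95% interval 0.19 to 0.81; limma adjusted p = 0.0423). At such low levels the 1 added before logarithms shrinks differences. With 0.1 added in its place the log2 fold change was 0.67 (limma adjusted p = 0.0401). The call is close to the threshold. It was lost in 11 of 21 alternatives, among them without control 1, 2 or 3 and without cKO 1, 3, 4 or 5, where the adjusted p lay between 0.0598 and 0.173, and kept without cKO 2 (0.0168) and in the 6 libraries of the main title series (log2 fold change 0.59, adjusted p = 0.0280). With the mean level of stromal and muscle markers in the model it was 0.61 (adjusted p = 0.0651). The genes whose centred log2 levels lay nearest to those of Btc over the 8 libraries were Rpl30, Apmap and Itgb1, with root mean square differences of 0.053, 0.077 and 0.081. Rpl30 is a ribosomal protein gene with many processed copies, so its reads are hard to assign, and Itgb1 encodes the integrin beta 1 chain.

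Hbegf, the gene of heparin-binding EGF-like growth factor on chromosome 18 (36504927 to 36515805), was the most abundant ligand. Hbegf stood at 24.2, 20.2 and 10.3 scaled FPKM in controls 1, 2 and 3, against 52.0, 27.6, 27.4, 19.2 and 24.4 in cKO 1 to 5. Of the 5 cKO libraries, 4 lay above every control, cKO 4 lay within the control range, and cKO 1 was 2.01 times the median of the other 4. The log2 fold change of 0.69 ± 0.34 did not pass (95% interval -0.073 to 1.46; limma adjusted p = 0.194). Without cKO 1 it was 0.48, without control 3 it was 0.35, and in the main title series alone 0.42. Other alternatives raised it, to 0.93 without control 1, 0.80 without control 2 and 0.83 without cKO 4. With the mean level of stromal and muscle markers in the model it was 0.96. Over all alternatives it ran from 0.35 to 0.96, and none passed the threshold.

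Tgfa, the gene of transforming growth factor alpha on chromosome 6 (86195251 to 86275449), was the next most abundant ligand. Tgfa stood at 8.68, 7.95 and 7.72 scaled FPKM in controls 1, 2 and 3, against 8.63, 10.6, 8.83, 7.96 and 13.0 in cKO 1 to 5. The groups overlapped, with cKO 5 the highest library. The log2 fold change was 0.23 ± 0.15 (95% interval -0.11 to 0.56; limma adjusted p = 0.319), and 0.13 without cKO 5.

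Areg, the amphiregulin gene, was under the filter and has no value in the fit across genes. Areg stood at 0.320, 0.321 and 0.192 scaled FPKM in controls 1, 2 and 3, against 0.788, 0.268, 0.0980, 0.138 and 0.170 in cKO 1 to 5. By the width of the deposited intervals these values rest on about 5 fragments in cKO 3 and 44 in cKO 1, and on 8 to 20 in the other 6 libraries. cKO 3, cKO 4 and cKO 5, the cKO libraries of the main title series, lay below every control. Of the other title series, cKO 2 lay within the control range and cKO 1 above it. The main title series alone was not tested for Areg. An exact permutation test over the 8 libraries, two-sided and chosen after the values were seen, was run on log2(scaled FPKM + 1). The difference was -0.0060 (exact permutation p = 1, smallest possible 0.0179). Without cKO 1, an alternative also chosen after the values were seen, the difference was -0.13 (exact permutation p = 0.114, smallest possible 0.0286). At levels below 1 the added 1 shrinks differences, so neither value is a log2 fold change. Mean scaled FPKM was 0.278 ± 0.0744 (SD, n = 3) in control and 0.293 ± 0.284 (SD, n = 5) in cKO. Without cKO 1 the cKO mean was 0.169 ± 0.0726 (SD, n = 4). Ereg, the epiregulin gene, was listed at 0 with an OK status in all 8 libraries, and no fold is given for it.

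Erbb2 (chromosome 11, 98412484 to 98437716) and Erbb3 (chromosome 10, 128569368 to 128589501) were the leading receptor genes in both groups. Erbb2 stood at 31.2, 24.7 and 24.6 scaled FPKM in controls 1, 2 and 3, against 26.8, 33.3, 24.3, 29.2 and 30.7 in cKO 1 to 5. Its highest library was 1.37 times its lowest, the narrowest range of the 8 members above 0. The log2 fold change was 0.10 ± 0.13 (95% interval -0.19 to 0.39; limma adjusted p = 0.614). Leaving out 1 library at a time gave 0.045 (without control 3) to 0.21 (without control 1). Erbb3 stood at 31.8, 20.6 and 20.8 in controls 1, 2 and 3, against 17.7, 27.4, 25.4, 35.3 and 28.6 in cKO 1 to 5, so that control 1 stood above the other controls and cKO 1 below every other library. Its log2 fold change was 0.13 ± 0.22 (95% interval -0.37 to 0.63; adjusted p = 0.714), and leaving out 1 library at a time gave 0.028 (without cKO 4) to 0.33 (without control 1). With TPM, which moved the median log2 fold change of all tested genes to -0.20, both estimates were below 0 (-0.10 and -0.069), again short of the threshold.

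Egfr (chromosome 11, 16752203 to 16913907) stood at 7.42, 6.26 and 4.28 scaled FPKM in controls 1, 2 and 3, against 5.87, 5.81, 6.49, 5.09 and 5.03 in cKO 1 to 5. All cKO libraries lay within the control range. The log2 fold change was -0.048 ± 0.15 (95% interval -0.40 to 0.30; limma adjusted p = 0.860), and its sign turned without control 1 (0.10) and with the mean level of stromal and muscle markers in the model (0.13). Control 1, the library with the highest Egfr value, also had the highest mean log2 level of stromal (3.43) and smooth muscle (4.96) markers. Control 3, with the lowest Egfr value, had 2.47 and 3.24, against 2.70 and 2.68 in control 2. The part of stromal or muscle cells in the Egfr values was not tested.

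The Egfr value is the sum of 2 transcripts that share a start. The longer one, of 5965 bases, stood at 5.50, 4.10 and 2.97 scaled FPKM in controls 1, 2 and 3, against 4.53, 4.24, 4.59, 5.09 and 2.95 in cKO 1 to 5. The shorter one, of 2678 bases, ends 26.2 kb earlier on the chromosome and took 25.9%, 34.5% and 30.5% of the Egfr FPKM in controls 1 to 3. In cKO its share was 22.9%, 27.0% and 29.3% in cKO 1 to 3, 0% in cKO 4 and 41.3% in cKO 5. The shorter transcript was listed at 0 in cKO 4 with an OK status and an upper interval bound of 0.0143 FPKM. The longer transcript lay within the range of the other libraries there. Whether the 0 is a failed estimate was not tested, and neither were the shares.

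**Figure D2:**
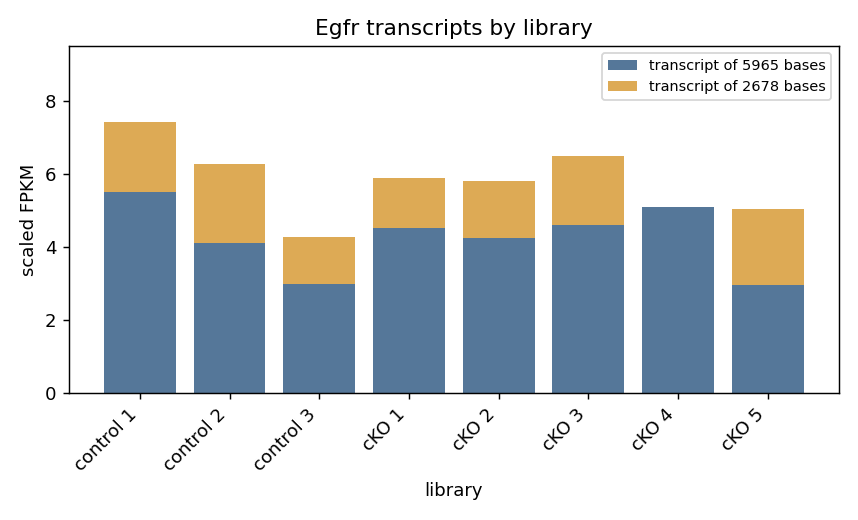
Stacked bars of scaled FPKM for the 2 Egfr transcripts in each library. The total lies between 4.28 and 7.42 in all 8 libraries, and the shorter transcript is listed at 0 in cKO 4.

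Errfi1 (chromosome 4, 150855091 to 150868880) was the most abundant member, above Erbb2 in 7 of 8 libraries. Errfi1 stood at 35.6, 32.6 and 28.2 scaled FPKM in controls 1, 2 and 3, against 57.4, 46.5, 27.1, 28.9 and 41.5 in cKO 1 to 5. cKO 1, 2 and 5 lay above every control and cKO 3 below. The log2 fold change was 0.27 ± 0.24 (95% interval -0.27 to 0.81; limma adjusted p = 0.465), and it was 0.13 without cKO 1, 0.18 without control 3, 0.39 without cKO 3 and -0.0031 within the main title series.

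**Figure D3:**
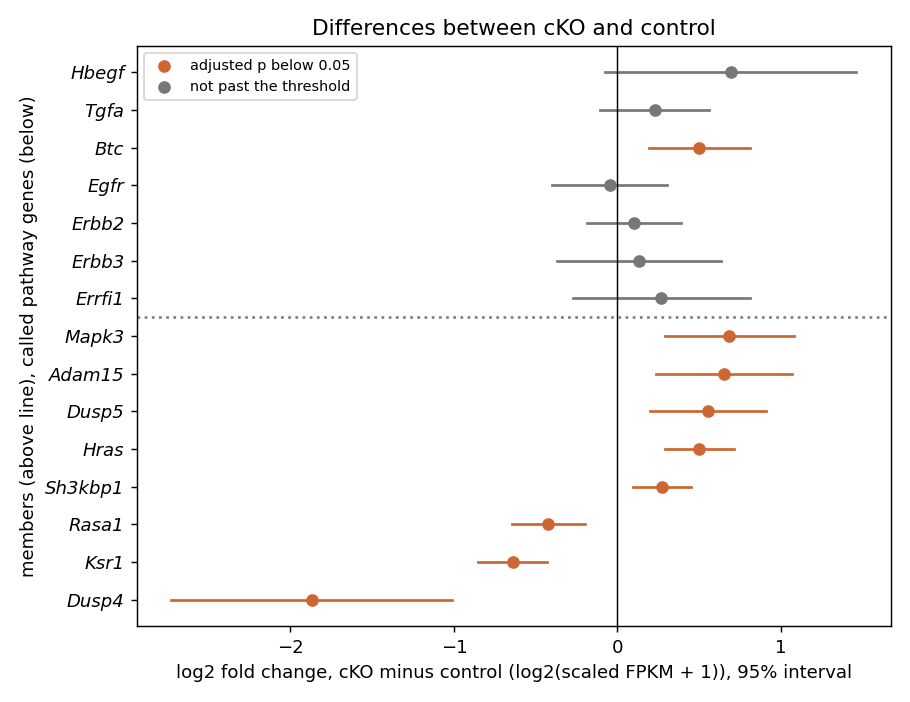
Log2 fold changes (cKO minus control, on log2(scaled FPKM + 1)) with 95% intervals from limma for the 7 tested members, above the dotted line, and for the 8 called genes of the pathway lists, below it. Orange marks an adjusted p below 0.05; among members this is Btc alone.

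The rest of the pathway was read from 6 lists of 86 genes, of which 71 were tested. In all, 5 were higher and 3 lower, 11.3% of the 71 beside the 14.3% called over all tested genes. The remaining ligand and receptor genes were under the filter: Egf, Epgn, Nrg1, Nrg2 and the receptor gene Erbb4 did not exceed 0.218 scaled FPKM in any library, and Nrg3 and Nrg4 were listed at 0. Of 9 tested genes of ligand shedding and trafficking 1 was higher, the protease gene Adam15, from 11.7 ± 0.816 to 19.4 ± 4.91 (log2 fold change 0.65 ± 0.18, limma adjusted p = 0.0457). Of 16 genes that restrain receptors 1 was higher, Sh3kbp1, whose product works with CBL in receptor endocytosis, by 0.27 ± 0.078 (adjusted p = 0.0489). None of 11 PI3K and AKT genes was called by limma, and 2 had an unadjusted p below 0.05, beside 31.5% of all tested genes. The most abundant 2 did not pass, at 67.7 ± 7.40 against 59.8 ± 0.863 for Akt1 and 18.4 ± 3.78 against 22.3 ± 1.07 for Pik3r3. The median log2 fold changes of these 3 lists were 0.20, 0.070 and 0.040.

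Among 20 RAS and ERK cascade genes 2 were higher and 2 lower, with a median log2 fold change of -0.034. This is 20% called, beside 14.3% of all tested genes (7.27% higher and 6.98% lower), and the list was not tested as a set. Ksr1, a scaffold that brings RAF, MEK and ERK together, went down from 5.39 ± 0.273 to 3.11 ± 0.269 (log2 fold change -0.64 ± 0.093, limma adjusted p = 0.00412) and was called in all 20 alternatives. Ksr1 stood at 5.65, 5.11 and 5.43 in controls 1, 2 and 3, against 3.34, 3.41, 2.76, 3.09 and 2.94 in cKO 1 to 5, with no overlap. The groups did not overlap for 24.6% of all tested genes (12.9% with cKO below control). With 0.1 added before logarithms in place of 1, the log2 fold change of Ksr1 was -0.78. Rasa1, which switches RAS off, fell by 0.42 ± 0.098 (adjusted p = 0.0242). Hras, one of the RAS genes, rose from 13.5 ± 0.348 to 19.5 ± 1.79 (adjusted p = 0.0109) and Mapk3, which encodes ERK1, from 71.5 ± 6.74 to 117 ± 24.7 (adjusted p = 0.0334).

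Of 15 tested ERK feedback and target genes, 1 was higher and 1 lower, 13.3% beside the 14.3% called over all tested genes. A total of 10 of the 15 had a positive log2 fold change, and the median was 0.36, against -0.0050 over all tested genes. An unadjusted p below 0.05 was found for 5 of the 15 (limma), a share near the 31.5% of all tested genes. Dusp4, which encodes a nuclear phosphatase of ERK, fell from 20.8 ± 5.89 in control to 5.38 ± 2.95 in cKO (log2 fold change -1.87 ± 0.38, limma adjusted p = 0.0152). Dusp4 stood at 17.6, 27.6 and 17.1 in controls 1, 2 and 3, against 5.94, 5.30, 9.84, 1.84 and 3.96 in cKO 1 to 5. The groups did not overlap, which held for 24.6% of tested genes (12.9% with cKO below control). Dusp5, another nuclear ERK phosphatase gene, rose from 2.53 ± 0.320 to 4.23 ± 0.892 (adjusted p = 0.0478). The call of Dusp4 was lost without control 2 (-1.66, adjusted p = 0.0818), without control 3 (-1.99, 0.0555) and with the stromal and muscle term (-1.64, 0.0758). That of Hras was lost in 3 of 21 alternatives (without control 2 or 3 and with TPM), that of Rasa1 in 4 (without control 1, 2 or 3 and with the stromal and muscle term), those of Adam15 and Mapk3 in 10 each, that of Sh3kbp1 in 14, and that of Dusp5 in 13 of 20. For Rasa1, Adam15, Mapk3, Sh3kbp1 and Dusp5 leaving out any 1 of the 3 controls was enough.

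Both libraries of the other title series, cKO 1 and cKO 2, lay above the other 6 libraries for 2 of the 7 tested members, Hbegf and Errfi1, and for 5 of the 15 ERK feedback and target genes, Dusp6, Ier3, Phlda1, Spry2 and Spry4 (33.3%). The same held for 7.65% of all tested genes. In the other lists it held for 18.2% of the PI3K and AKT genes (Akt2 and Pik3cd) and 11.1% of the shedding and trafficking genes. It held for 6.25% of the genes that restrain receptors and 0% of the RAS and ERK cascade genes. Among the ERK feedback and target genes, Phlda1 was at 66.9 and 49.4 scaled FPKM in cKO 1 and cKO 2 and at 19.5 to 35.3 in the others, and Ier3 at 1193 and 1044 against 432 to 720. By this choice the highest library of these 5 ERK genes had to be cKO 1 or cKO 2, so it is not a separate result. It was cKO 1 for all 5, and cKO 1 was the highest library for 14.2% of all tested genes. Another 5 of the 15, Ccnd1, Dusp5, Etv5, Myc and Spry1, were highest in cKO 3, the highest library for 14.5% of all tested genes. The title series cannot be told apart from differences between these 2 libraries and the other cKO libraries, and this grouping was looked at after the values were seen.

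**Figure D4:**
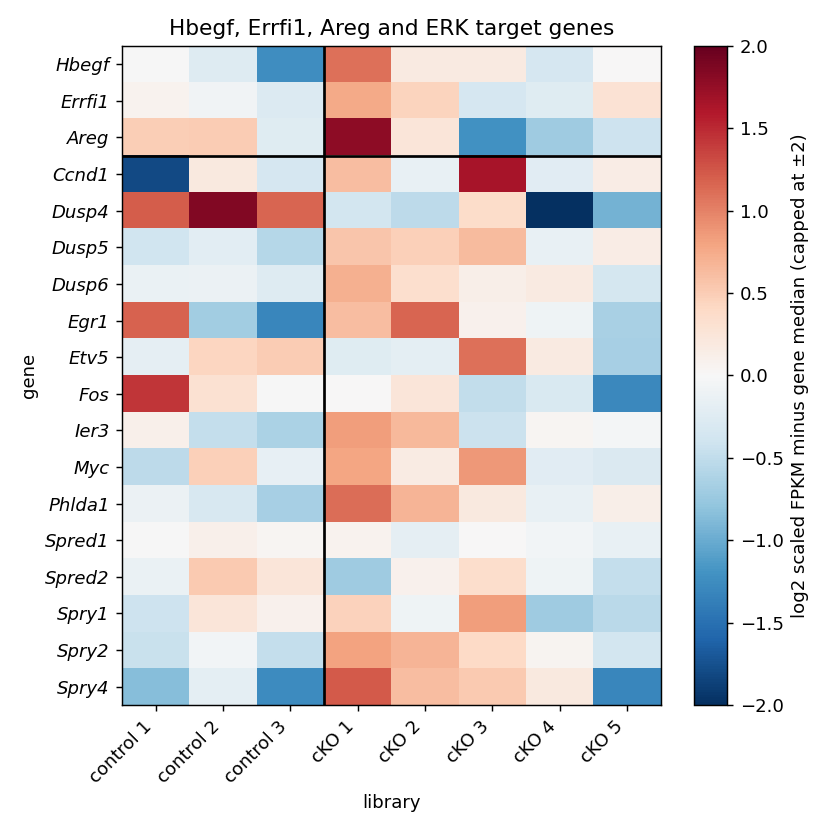
Heat map of log2 scaled FPKM minus the gene's median over the 8 libraries (colour, capped at 2 in either direction) for Hbegf, Errfi1 and Areg, above the line, and the 15 tested ERK feedback and target genes, below it; controls are left of the vertical line. Hbegf, Errfi1, Dusp6, Ier3, Phlda1, Spry2 and Spry4 have their 2 highest values in cKO 1 and cKO 2, and Dusp4 is higher in every control than in every cKO library.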

How the data were processed

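The submitters' processing notes name bcl2fastq 1.8.3, TopHat and Cufflinks, with mm10 as the genome; per the labels' protocols, cDNA was primed with random and poly-dT primers. The sources used here do not give annotation release or strand use. Deposited FPKM values cover 34535 RefSeq transcripts with 95% intervals, and were made by the authors in each library separately, per the file headers. Deposited coverage (a depth signal) was not used in any result. Start positions were written 1-based.

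FPKM was summed per symbol, genes with a status other than OK were left out, and libraries were scaled by median ratios to each gene's geometric mean, over genes with an FPKM of 1 or more throughout (factors 0.924 to 1.06). Depth was estimated from interval widths; recovered fragment numbers of low genes lay within 0.02 of a whole number in 54.3% to 57.6% of cases, so no count test was run. limma 3.58.1 in R 4.3.3 with a variance trend was used, two-sided, and tested on simulated data. The members, lists, named-gene rule and alternatives were chosen with earlier results of these data known. The rule names all members, Smad2 and Smad3, in each list up to 6 called genes in order of adjusted p, otherwise its 2 most abundant genes, and the 3 genes nearest to each called member; Phlda1, Ier3, Dusp6, Spry2 and Spry4 were named after their values were seen.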

Additional observations from a re-analysis of the deposited data

Results flagged for a closer look

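Single libraries were screened in 22 sets of 5 cKO values: those of the members, the named pathway genes, Smad2, Smad3 and the Egfr transcripts. In 3 sets the highest or lowest library stood apart. Its gap to the next, divided by the whole range, exceeded 0.71, the 95% critical value of Dixon's test for 5 values. For normally distributed values chance alone gives about 1 in 20. The screen used scaled FPKM without logarithms, where high values tend to lie further apart, and was not run on log values. The Egfr sets also depend on each other, so the 3 flags cannot be set against that rate. Areg in cKO 1, at 0.788 scaled FPKM, was separated from the next library by 0.753 of the range. Hbegf in cKO 1, at 52.0 scaled FPKM, was separated by 0.742 of the range. Pik3r3, which encodes a regulatory subunit of PI3K, was at 24.9 scaled FPKM in cKO 5, separated by 0.757 of the range, and without that library its log2 fold change was -0.40 (limma adjusted p = 0.0295) in place of -0.29 (0.211).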

How the results depend on the processing

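Of 153 values of the 7 tested members under the alternatives, 135 kept their direction and side of the threshold, 11 (all Btc) lost the call and 7 changed sign. The sign changes, none past the threshold, were Egfr without control 1 (0.10, in a range of -0.24 to 0.10 without single libraries), with the stromal and muscle term (0.13) and with the most abundant transcript alone (0.038), Erbb2 and Erbb3 with TPM (-0.10 and -0.069), and Errfi1 in the main title series and with the title series as a term (-0.0031 in both). Outside the members, Akt1 turned to -0.033 with TPM, and Smad3 to -0.13 with TPM, -0.019 with array weights, -0.049 without cKO 1 (-0.049 to 0.20 without single libraries), and -0.19 in the main title series and with the title series as a term. The number of members called higher was 0 in place of 1 with unscaled FPKM, TPM, no filter and the stromal and muscle term, and 0 with a mean of at least 5, which leaves Btc out by construction; leaving out single libraries gave 0 to 1. No alternative called a member lower (limma). Over all genes 823 were higher and 790 lower, 51.0% higher. TPM gave 510 and 1662 (23.5% higher), array weights 1794 and 1733, the stromal and muscle term 358 and 305, and a mean of at least 5 gave 473 lower; leaving out single libraries gave 238 to 936 higher and 176 to 892 lower, fewest without control 2 and control 3. Of the pathway genes 5 were higher and 3 lower. The higher count was 2 with unscaled FPKM, 1 with TPM, 3 with quantile normalization, 3 without a filter, 12 with array weights, 3 in the main title series, 3 with the title series as a term, 1 with the stromal and muscle term and 0 to 4 without single libraries. The lower count was 5 with TPM, 1 with the stromal and muscle term and 1 to 4 without single libraries. The cause of these shifts was not tested. No paired analysis was possible because the labels give the libraries no replicate numbers. For Areg the depth limits the precision, since 5 of 8 values rest on fewer than 15 fragments.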
